A study of Arabidopsis thaliana with 3 samples.

Results

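The Transducin/WD40 repeat-like superfamily genes of Arabidopsis thaliana were examined for DNA methylation over their gene bodies in plants with reduced histone H3.3. The members were all protein-coding genes whose product name in the TAIR10.1 annotation holds the phrase Transducin/WD40 repeat-like superfamily protein. AT5G64630 carries the phrase and was left out by the selection rule, which also leaves out AT3G44530, a gene with another product name. The rule used no measured value, and it gave 128 members of 27444 protein-coding genes. A further 57 genes whose product names mention WD40 or transducin in other words form the wider family that is set beside them.

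Bisulfite sequencing (BS-seq) was done on mature leaves of Col-0 plants, with 2 libraries of h3.3kd plants and 1 library of WT plants. The h3.3kd plants are homozygous for T-DNA insertions in HTR4 and HTR8, and carry an artificial microRNA against HTR5, the remaining H3.3 gene, under the HTR5 promoter. The knockdown is therefore partial in design, transcripts were not measured in these libraries, and the labels do not say which h3.3kd line each replicate is. WT plants have none of these alleles.

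WD40 repeats fold into a propeller-shaped scaffold on which other proteins assemble, and WD40 proteins serve as subunits of ubiquitin ligases, chromatin complexes, spliceosomes, ribosome assembly factors and vesicle coats. Many of these are housekeeping proteins, encoded by genes with several exons. In Arabidopsis, such genes often carry gene body methylation, which is methylation of cytosines in the CG context inside the transcribed region, low at the transcription start and end and kept through cell division by MET1. H3.3 is the histone H3 variant that is put into chromatin outside of replication and is found over transcribed genes, mostly towards their 3′ ends.

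The methylation level is the number of C calls over C plus T calls, in percent, since bisulfite leaves methylated cytosines as C and turns the others into T. The libraries held 822515332 and 842326850 calls in h3.3kd and 839704204 calls in WT, or 19.2, 19.7 and 19.6 calls per reference cytosine. Each tested member had between 668 and 8315 CG calls in a library, with medians of 3022 and 3025.5 in h3.3kd and 2802 in WT. AT5G50550 (chr5:20576733-20579103) and AT5G50650 (chr5:20610075-20612445) are identical copies of 2371 bp, had 0 calls at their 126 CG sites in every library and were not tested. With 1 WT library, an exact permutation over libraries cannot go below p = 0.333. Each gene or tile was tested by comparing its calls in an h3.3kd library with those in WT (Fisher's exact test, two-sided, Benjamini-Hochberg over all genes or tiles of the genome), which compares libraries and not conditions. A gene was called when both h3.3kd libraries differed from WT with an FDR under 0.01 and by at least 10 percentage points in the same direction.

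Stretches of 100 bp that carried differences in the members described first are shown here, read from TAIR10.1 on the plus strand, with each CG dyad in capitals. Each was chosen by its values, as the called stretch of its gene with the largest difference reached in both h3.3kd libraries. Stretches with untranslated bases were left out, and those with at least 4 CG dyads were taken where the gene had them. The first 4 had lower CG levels in h3.3kd and the last had a higher level.
COP1 chr2:13982701-13982800: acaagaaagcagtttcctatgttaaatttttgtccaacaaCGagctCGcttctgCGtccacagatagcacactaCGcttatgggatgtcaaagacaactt
VCS chr3:4309801-4309900: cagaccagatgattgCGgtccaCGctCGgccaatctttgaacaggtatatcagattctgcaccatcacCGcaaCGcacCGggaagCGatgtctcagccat
AT5G24710 chr5:8463501-8463600: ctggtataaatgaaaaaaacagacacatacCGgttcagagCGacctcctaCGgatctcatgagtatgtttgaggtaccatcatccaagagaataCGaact
AT4G21520 chr4:11447901-11448000: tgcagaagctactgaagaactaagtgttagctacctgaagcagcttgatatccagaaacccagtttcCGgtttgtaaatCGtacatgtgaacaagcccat
LST8-2 chr2:9375901-9376000: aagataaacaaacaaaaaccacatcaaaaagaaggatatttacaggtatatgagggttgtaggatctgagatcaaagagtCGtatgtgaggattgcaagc

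The COP1 stretch lies in coding sequence, and its 4 dyads had 12.2, 45.2, 26.2 and 21.9% in h3.3kd replicate 1. The same dyads had 12.2, 30.8, 25.0 and 10.9% in h3.3kd replicate 2, against 94.6, 90.9, 93.8 and 93.0% in WT. All 4 were partly methylated in h3.3kd and close to full in WT. The AT5G24710 stretch, of 70 coding and 30 intron bases, differed at single dyads. Its second dyad had 0 and 2.08% in h3.3kd, against 72.7% in WT, and its last had 0 and 2.17% in h3.3kd, against 97.1% in WT. The 0 values, of 55 and 35 calls, allow levels of up to 5.45 and 8.57%. The first dyad had 96.2 and 94.0% in h3.3kd and 97.8% in WT, and the third had 63.8 and 63.8% in h3.3kd and 67.5% in WT, so that dyads 10 bases apart in 1 exon either kept or lost their methylation. In the VCS stretch, which is coding, the 7 dyads ranged between 16.0 and 62.5% in h3.3kd replicate 1, between 9.09 and 75.7% in replicate 2 and between 25.0 and 100% in WT. The LST8-2 stretch holds a single dyad, with 71.4 and 58.9% in h3.3kd and 2.44% in WT. Each dyad value rests on 21 to 63 calls.

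Summed over the members' bodies, CG methylation was 17.4 and 17.1% in h3.3kd and 19.6% in WT. The h3.3kd mean of 17.3% (SD 0.221, n = 2) was 2.32 points lower than WT, or 11.9% of the WT level, while the h3.3kd libraries differed from each other by 0.312 points. Over all genes the levels were 14.96 and 14.6% in h3.3kd and 16.7% in WT, a difference of -1.90 points or 11.4% of WT. The members thus started higher than genes at large, and lost about the same share. The wider family was higher still, at 29.8 and 29.1% in h3.3kd and 32.6% in WT.

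Outside of the CG context the members carried next to no methylation. CHG levels were 0.575 and 0.570% in h3.3kd and 0.608% in WT, and CHH levels were 0.552 and 0.556% in h3.3kd and 0.568% in WT. All 126 members tested had CHG levels under 5%, as did most genes, since 1517 of all 26970 genes tested reached 5%. The members thus lacked the CHG methylation of silenced repeats. Of the 126, 26 (20.6%) also had under 2% CG in WT, against 42.2% of all genes, and so had next to no methylation in any context. All genes with CHG under 5% had CHG levels of 0.567 and 0.576% in h3.3kd and 0.610% in WT. Over all genes CHG was 1.28 and 1.28% in h3.3kd and 1.44% in WT.

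The change depended on the position in the gene. In the 127 members of at least 1 kb, the first 30% of the gene had 5.71 and 5.70% in h3.3kd and 5.98% in WT. The middle 40% had 29.96 and 29.7% in h3.3kd and 31.9% in WT. The last 30% had 18.6 and 17.7% in h3.3kd and 23.8% in WT. The difference was thus -0.278 points at the 5′ end, -2.07 in the middle and -5.64 at the 3′ end, where it came to 23.8% of the WT level. The 3′ difference exceeded the gap of 0.896 points between the h3.3kd libraries. All genes gave -0.442, -2.09 and -3.86 points for the same stretches, and 18.9% of WT at the 3′ end, with 17.0 and 16.1% in h3.3kd and 20.4% in WT. Whether the members differ from other genes at the 3′ end was not tested.

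**Figure D1:**
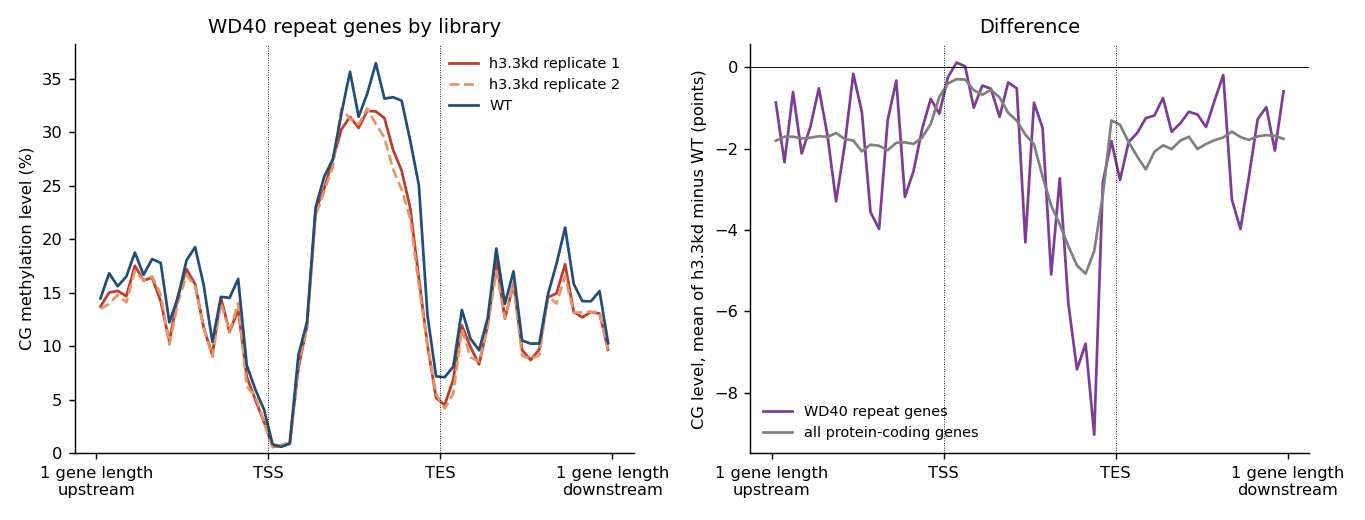
Left, CG level of the members (percent, y axis) along the gene from the transcription start (TSS) to its end (TES), in 20 bins with 1 gene length either side (x axis), for the 2 h3.3kd libraries and WT, and right, the mean of h3.3kd minus WT (points, y axis) for the members and all protein-coding genes. The lines of the libraries lie together in the first bins and part towards the 3′ end, where the 18th bin had 16.4 and 15.7% in h3.3kd and 25.1% in WT.

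The plot of CG level along the gene gives the same in finer steps. The first 3 of 20 body bins lay under 1.04% in every library, and WT rose to its highest level, 36.5%, in the 13th bin, where h3.3kd had 31.9 and 30.8%. The 18th bin had the deepest loss, with 16.4 and 15.7% in h3.3kd and 25.1% in WT, a difference of -9.03 points. For all genes the deepest bin was the 17th, with 19.2 and 18.1% in h3.3kd and 23.7% in WT. Coding sequence of the members had 20.6 and 20.3% in h3.3kd and 23.3% in WT, and introns had 19.4 and 19.2% in h3.3kd and 21.5% in WT. Both parts of the gene were lower by more than the h3.3kd libraries differed. Untranslated exons had little methylation, with 1.78 and 1.89% in h3.3kd and 3.04% in WT.

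Of the 126 members tested, 2 were called lower over the whole body (1.59%), against 1.44% of all genes tested, and 0 were called higher, against 0.304%. The share called was thus close to that of all genes. With limma, which takes the spread between the h3.3kd libraries as the error, 0 members and 0 of all 26970 genes tested passed. The smallest FDR among the members, 0.204, was also the smallest over all genes. With the FDR alone and no minimum difference, 38 members (30.2%) were lower in both libraries, against 19.0% of all genes, and 3 (2.38%) were higher, against 4.84%. The other 85 passed in neither direction. In sign alone, 77 members (61.1%) were lower than WT in both libraries, against 51.8% of all genes. A further 27 (21.4%) were higher in both, against 25.7%, and 22 (17.5%) went opposite ways, against 22.6%.

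The members are longer than other genes (median 2889 bp against 2078 bp) and have more exons (median 9 against 4), and more of them are methylated. Their median body level was 12.9 and 12.3% in h3.3kd and 15.3% in WT, against 4.50 and 4.09% in h3.3kd and 5.18% in WT over all genes. A WT level of at least 10% was reached by 76 members (60.3%), against 41.1% of all genes. Among these 76, 34 passed the FDR as lower (44.7%, against 33.6% of all genes at that level) and 1 as higher (1.32%, against 3.46%), and the median difference was -2.66 points, against -2.59. Among the members at that level, 55 were lower in both libraries (72.4%, against 68.2%). At that level the median differences of the members and of all genes were close.

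**Figure D2:**
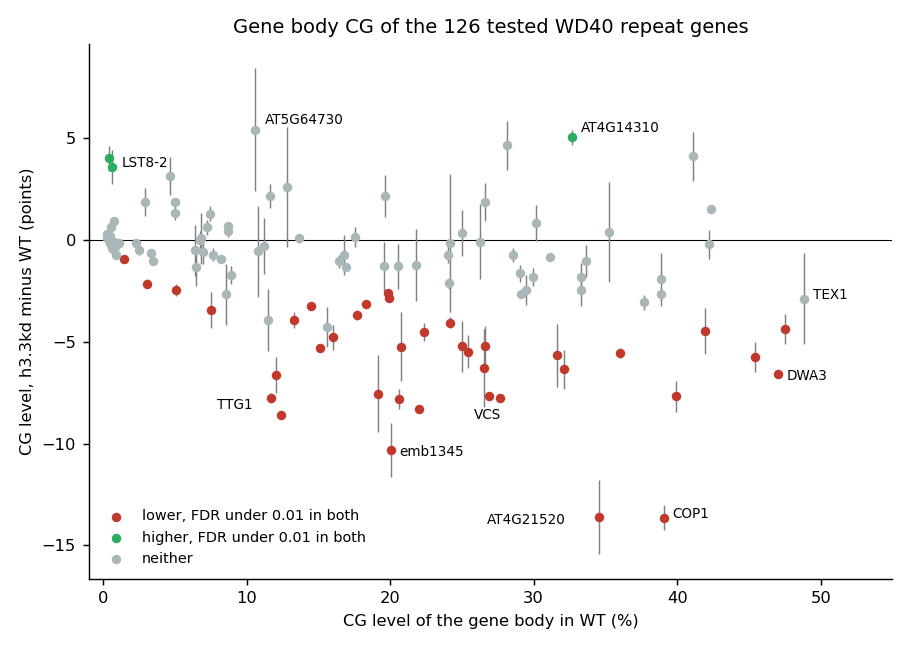
Difference in body CG level, h3.3kd mean minus WT (points, y axis), against the WT level (percent, x axis) for the 126 tested members, with vertical lines spanning the 2 h3.3kd libraries. Red points passed the FDR as lower, green as higher and grey in neither direction, and COP1 and AT4G21520 are the lowest, both at -13.6 points.

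The plot of the members' differences by WT level shows COP1 and AT4G21520 apart from the rest. COP1 (AT2G32950, chr2:13977881-13983609, plus strand, 13 exons) encodes the E3 ubiquitin ligase that represses photomorphogenesis in the dark. Its body had 26.0% (95% Wilson interval 24.9 to 27.2) and 24.8% (23.6 to 26.0) in h3.3kd and 39.1% (37.7 to 40.5) in WT, and these intervals cover counting error only. The h3.3kd mean was thus -13.6 points away from WT, at FDRs of 7.66e-42 and 4.20e-50 by Fisher's exact test. Coding sequence of COP1 had 28.9 and 28.2% in h3.3kd and 49.9% in WT, and its introns had 27.9 and 25.7% in h3.3kd and 35.1% in WT.

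AT4G21520 (chr4:11447429-11450571, minus strand, 14 exons) has no annotated role beyond the family name. Its body had 19.1 and 22.8% in h3.3kd and 34.6% in WT, with FDRs of 2.71e-25 and 4.38e-15 by Fisher's exact test. The h3.3kd libraries differed from each other by less than either differed from WT. The gene shares bases with APC4 (AT4G21530), another member, which encodes subunit 4 of the anaphase promoting complex. APC4 had 35.0 and 34.3% in h3.3kd and 37.7% in WT over its body, and 13.0 and 11.4% in h3.3kd and 27.9% in WT over its last 30%. Of the 128 members, 40 share bases with another gene, so that calls there count for both.

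Just outside the calling rule was emb1345 (AT2G26060), the homolog of yeast CIA1, which assembles iron-sulfur clusters in the cytosol. It had 11.02 and 8.38% in h3.3kd and 20.03% in WT, and only replicate 2 reached the 10-point minimum. Further members with body levels well under WT were chosen here after their values were seen. AT5G53500 had 3.94 and 3.56% in h3.3kd and 12.4% in WT, and its best match in the annotation, AT5G24320, had 13.3 and 12.3% in h3.3kd and 20.6% in WT. Both passed the FDR in both libraries. AT5G51980 had 13.8 and 13.5% in h3.3kd and 21.99% in WT.

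The last 30% of each gene was also tested on its own, a test added after the profile had been seen. Of 122 members tested, 25 were called lower (20.5%), against 11.2% of all genes tested, and 1 was called higher, against 1.30%. With a WT level of at least 10% at the 3′ end, 25 of 72 members were lower (34.7%), against 26.1% of all genes at that level. At the 5′ end, 0 of 125 members were called lower, against 0.743% of all genes, and 1 was called higher, against 0.452%. Medians over the members tested were -1.24 points at the 3′ end and -0.0119 at the 5′ end.

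All 25 members called lower at the 3′ end also overlapped a hypo-CG-DMR, and 22 of them passed the FDR as lower over the body. These calls are not independent, since they use the same counts and WT library, and the 3′ end is part of the body. The overlap is therefore no separate evidence of a loss, and it was not set beside that of all genes called lower there. The 3′ levels of the 25 members ranged over 1.79 to 47.9% in h3.3kd replicate 1, 0.978 to 39.4% in replicate 2 and 14.96 to 58.1% in WT. In the plot of 3′ levels, both h3.3kd libraries lie left of WT in every member shown, as the calling rule requires.

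**Figure D3:**
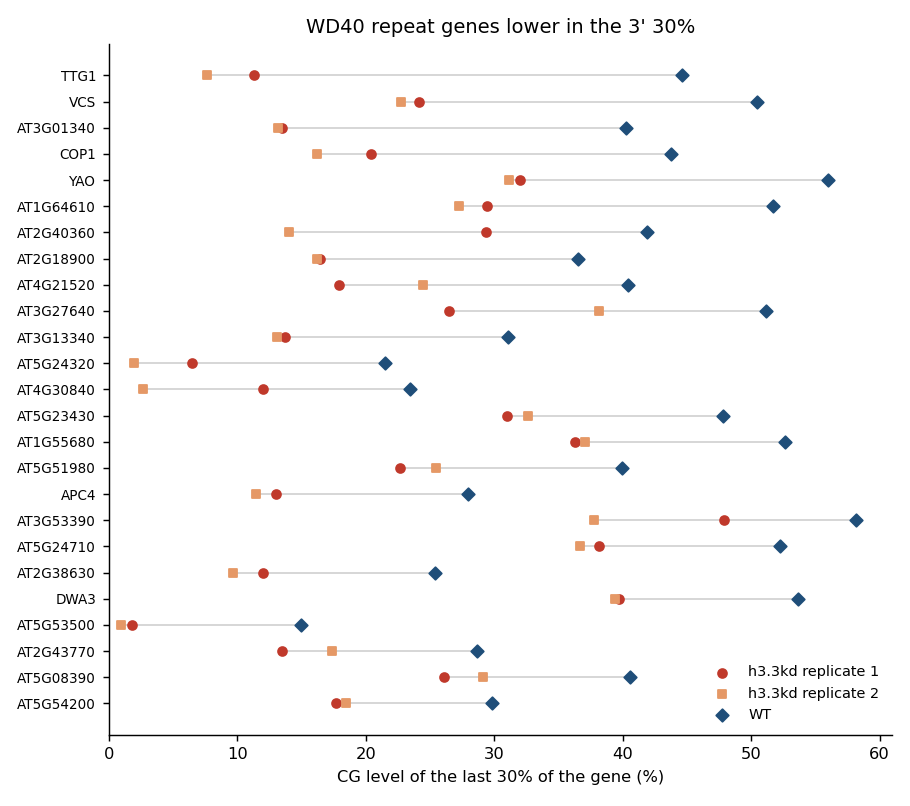
CG level of the last 30% of the gene (percent, x axis) for the 25 members called lower there (y axis, ordered by the size of the difference), with circles and squares for h3.3kd replicates 1 and 2 and diamonds for WT. TTG1 is at the top with 11.3 and 7.65% in h3.3kd and 44.6% in WT, and AT5G54200 at the bottom with 17.7 and 18.5% in h3.3kd and 29.8% in WT.

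TTG1 (AT5G24520, chr5:8370317-8372847, minus strand) encodes a regulator of trichome and root hair fate and of anthocyanin synthesis. Its last 30% had 11.3 and 7.65% in h3.3kd and 44.6% in WT, which is -35.1 points (FDR 1.76e-34 and 3.28e-48 by Fisher's exact test). Over the body it had 4.18 and 3.68% in h3.3kd and 11.7% in WT. The coding sequence of TTG1 had 3.43 and 3.46% in h3.3kd and 3.88% in WT, and its FDRs of 0.722 and 0.716 in Fisher's exact test did not pass. The difference lay in the untranslated exons, with 9.76 and 6.61% in h3.3kd and 38.6% in WT, and the introns, with 0.474 and 0.743% in h3.3kd and 5.73% in WT. In the first 30% of TTG1, levels were 0.419 and 0.646% in h3.3kd and 0.609% in WT.

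VCS (AT3G13300, chr3:4303822-4310275, plus strand) encodes a scaffold of the mRNA decapping complex. Its last 30% had 24.1 and 22.7% in h3.3kd and 50.5% in WT, and its body had 19.2 and 19.2% in h3.3kd and 26.9% in WT. VCS introns had 16.8 and 15.03% in h3.3kd and 38.0% in WT. AT3G01340, annotated to intracellular protein transport, had 13.5 and 13.2% in h3.3kd and 40.2% in WT at the 3′ end, while its body levels missed the FDR (0.395 and 0.0627 by Fisher's exact test). Over that body AT3G01340 had 27.8 and 26.3% in h3.3kd and 29.5% in WT, lower in both libraries but not past the test. COP1 had 20.4 and 16.2% in h3.3kd and 43.8% in WT at the 3′ end.

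The single member called higher at the 3′ end was AT1G19750, with 32.2 and 31.9% in h3.3kd and 21.5% in WT. Its best match in the annotation, ATCSA-1, which acts in UV-B tolerance, had 21.7 and 22.2% in h3.3kd and 24.1% in WT over its body. RBL, a WD40 subunit of COMPASS-like H3K4 methyltransferase complexes, has little methylation. Over the last 30% it had 0.211 and 0.384% in h3.3kd and 5.86% in WT, a difference that passed the FDR but was under 10 points.

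Regions with a difference in CG methylation (DMRs) were built from 100-bp tiles that differed in both h3.3kd libraries by at least 20 points with an FDR under 0.01, merged within 200 bp. A hypo-CG-DMR is lower and a hyper-CG-DMR is higher in h3.3kd. Of 3664 tiles in the members, 191 were lower (5.21%), against 2.59% of all tiles tested in the genome. Higher tiles were 82 (2.24%), against 1.19%. The tiles of the genome also lie outside of genes, and the share over tiles of all gene bodies was not counted. Of the 126 members tested, 68 overlapped a hypo-CG-DMR (54.0%), against 34.4% of all genes, and 52 overlapped a hyper-CG-DMR (41.3%), against 21.7%. Both kinds lay in 35 of the 126 members, against 3825 of all 27217 genes. The members also have a higher WT level and a greater length than other genes, and the part of these in the shares was not tested.

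The 131 hypo-CG-DMRs in the members were short, with a median length of 100 bp, and 97 of them were a single tile. Their median levels were 24.7 and 20.6% in h3.3kd and 67.6% in WT, values that the calling rule selected. By position, 17 lay in the first 30% of the gene, 59 in the middle 40% and 55 in the last 30%. The 71 hyper-CG-DMRs had median levels of 68.1 and 69.6% in h3.3kd and 14.0% in WT, with 9, 44 and 18 in the same 3 stretches. Median positions were 64.6% of the gene length for hypo-CG-DMRs and 50.7% for hyper-CG-DMRs.

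**Figure D4:**
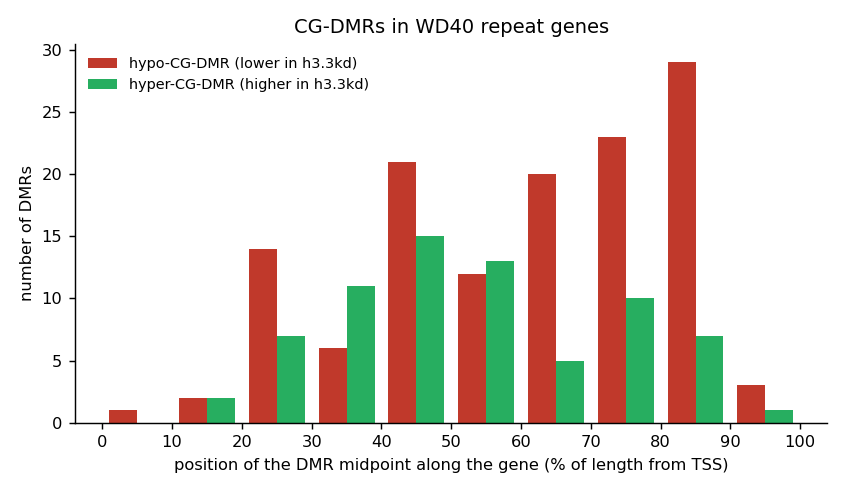
Number of DMRs (y axis) by their position in the gene, in steps of 10% from the transcription start to the end (x axis), for the 131 hypo-CG-DMRs and 71 hyper-CG-DMRs in the members. Hypo-CG-DMRs are most numerous at 80 to 90% of the gene length, with 29, and hyper-CG-DMRs at 40 to 50%, with 15.

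The plot of DMR positions shows 29 hypo-CG-DMRs at 80 to 90% of the gene length and 3 in the last 10%, where the methylation itself is low. The longest hypo-CG-DMR in a member was in AT5G24710 (chr5:8458847-8468173, minus strand, 21 exons), at chr5:8460901-8461900. It had 38.7 and 33.9% in h3.3kd and 72.5% in WT over 6 tiles called lower. The body of AT5G24710 had 38.9 and 40.4% in h3.3kd and 45.4% in WT. A hyper-CG-DMR of 500 bp stood in the same gene, with 79.8 and 84.6% in h3.3kd and 49.1% in WT, so that gains offset part of the losses in its sum.

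COP1, VCS and AT5G23430 had hypo-CG-DMRs of 5 tiles. That of COP1 (chr2:13982301-13983100) had 17.96 and 12.8% in h3.3kd and 57.2% in WT. That of VCS (chr3:4309101-4309900) had 16.5 and 9.79% in h3.3kd and 55.3% in WT. That of AT5G23430 (chr5:7894001-7894900) had 26.2 and 25.8% in h3.3kd and 55.7% in WT. All 3 were centred at 84 to 88% of the gene length. Nearer the start, COP1 had no methylated call in 1 tile that is mostly intron (chr2:13979201-13979300), with 0% of 34 calls and 0% of 46 calls in h3.3kd, which allow up to 8.82 and 6.52%, and 91.2% in WT. It gained in another (chr2:13980201-13980300), with 86.2 and 92.2% in h3.3kd and 65.9% in WT.

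**Figure D5:**
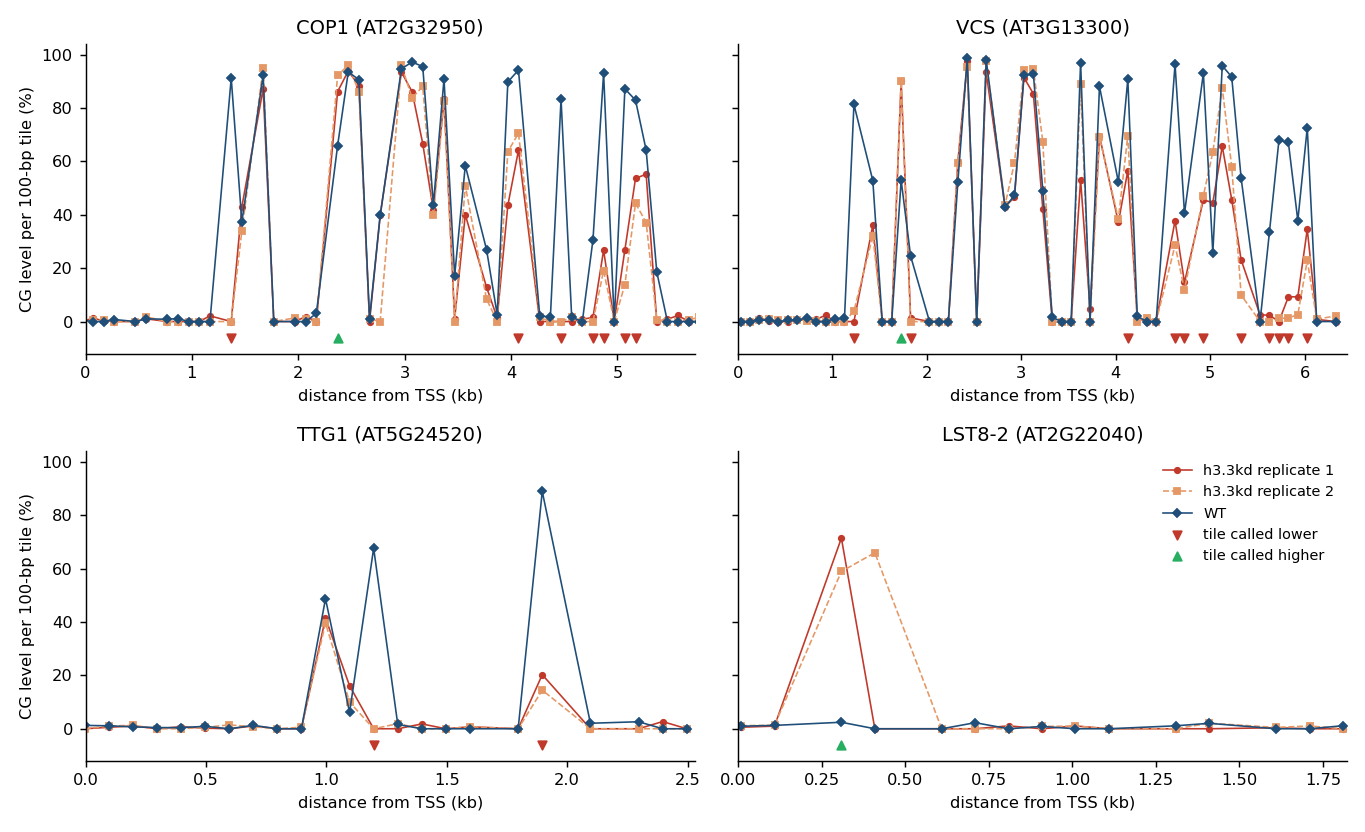
CG level per 100-bp tile (percent, y axis) against the distance from the transcription start (kb, x axis) in COP1, VCS, TTG1 and LST8-2 for h3.3kd replicates 1 and 2 and WT, with triangles under tiles called lower or higher. In COP1 and VCS the libraries overlap in much of the middle of the gene and part towards the 3′ end, while LST8-2 has a tile called higher near its start, with 71.4 and 58.9% in h3.3kd and 2.44% in WT.

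In the plot of tiles along 4 members, TTG1 has only 2 tiles called lower. The one in an intron (chr5:8371601-8371700) had 0% of 37 calls and 0% of 43 calls in h3.3kd, which allow up to 8.11 and 6.98%, and 67.6% in WT. The one in untranslated exon (chr5:8370901-8371000) had 20.3 and 14.5% in h3.3kd and 88.9% in WT. A methylated tile nearer to the start had 41.5 and 39.6% in h3.3kd and 48.7% in WT and was not called.

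YAO, a nucleolar protein needed for embryo sac development, had both kinds of DMR. Its hypo-CG-DMR at chr4:2743301-2743700 had 30 and 36.8% in h3.3kd and 74.7% in WT. Next to it, at chr4:2743801-2744100, a hyper-CG-DMR had 77.6 and 77.3% in h3.3kd and 53.1% in WT. Losses and gains of CG methylation thus stood within 1 kb of each other in 1 gene.

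Counted by CG dyad with at least 10 calls, 10220 dyads lay in the members. Of these, 2081 were methylated in WT (at least 60%). In both h3.3kd libraries 169 of them were unmethylated (under 10%), 8.12%, against 8.32% over all genes with CHG under 5%. Of the WT-methylated dyads, 1513 (72.7%) were methylated in all 3 libraries. Of 7922 dyads unmethylated in WT, 95 (1.20%) were methylated in both h3.3kd libraries, against 0.883% over the genes with CHG under 5%. At 78 dyads the h3.3kd libraries were opposite to each other, 1 methylated and 1 unmethylated. The spread of dyads among WT plants was not measured, as there was 1 WT library.

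The 3 members that passed the FDR as higher differed in where they gained. LST8-2 (AT2G22040, chr2:9374438-9376260, minus strand), a homolog of the TOR complex subunit LST8, had 3.37 and 5.03% in h3.3kd and 0.633% in WT over its body. The first 30% of LST8-2 had 11.5 and 15.1% in h3.3kd and 1.10% in WT, which made it the single member called higher at the 5′ end. One tile of the gene was called higher, and a second tile was methylated in h3.3kd replicate 2 only. AT5G50120 had 5.05 and 3.83% in h3.3kd and 0.443% in WT, with 1 tile of coding sequence at 51.7 and 60.5% in h3.3kd and 1.23% in WT. AT4G14310 had 37.3 and 38.0% in h3.3kd and 32.7% in WT. Both LST8-2 and AT5G50120 were nearly unmethylated in WT.

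LST8-1, the other LST8 homolog, had 7.45 and 8.21% in h3.3kd and 7.21% in WT over the body, which missed the FDR. Its introns had 8.72 and 6.12% in h3.3kd and 0.360% in WT, with FDRs of 5.63e-12 and 1.53e-07 by Fisher's exact test. Its coding sequence had 9.87 and 12.6% in h3.3kd and 14.9% in WT. A hyper-CG-DMR and a hypo-CG-DMR stood in this gene, of 1 tile each, and their differences offset each other in the sum over the body.

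By role, members were taken from lists set by hand, and only those whose list name stands in the annotation were grouped. The lists do not hold every member with an annotated role, and APC4 and VCS are in none of them. In light signalling, COP1 was lower, while RUP1 and RUP2, repressors of the UV-B response, had nearly no methylation in any library. RUP1 had 0.438 and 0.391% in h3.3kd and 0.2997% in WT, and RUP2 had 0.578 and 0.410% in h3.3kd and 0.545% in WT. Of 6 chromatin and transcription members, VIP3 and RBL passed the FDR as lower and 4 passed in neither direction. VIP3, which acts in flowering time, had 9.68 and 9.89% in h3.3kd and 15.1% in WT.

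Among the 4 that did not pass, FIE, a Polycomb subunit, had 31.6 and 30.1% in h3.3kd and 33.3% in WT. MSI1, shared by CAF-1 and Polycomb complexes, had 6.34 and 7.18% in h3.3kd and 6.76% in WT. WDR5a and WDR5b, homologs of a COMPASS subunit, differed in level. WDR5a had 0.418 and 0.278% in h3.3kd and 0.506% in WT, while WDR5b had 15.5 and 15.7% in h3.3kd and 16.9% in WT.

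Both grouped ribosome biogenesis members passed the FDR as lower, against 30.2% of the members tested and 19.0% of all genes. Their median difference was -6.96 points, while over the 5 members of the wider list of this role it was -1.74 points. YAO had 26.7 and 24.8% in h3.3kd and 32.1% in WT, and AT2G40360, which has a BOP1 N-terminal domain and acts in rRNA processing, had 13.5 and 9.69% in h3.3kd and 19.1% in WT. Of 4 grouped members of RNA processing and export, RAE1, an RNA export factor, was lower, with 11.8 and 10.6% in h3.3kd and 16.0% in WT. All 4 overlapped a hypo-CG-DMR, as did 6 of 7 members of the wider list. The share was 54.0% of the members tested and 34.4% of all genes. FY, an mRNA 3′ processing factor of the flowering pathway, had 27.8 and 26.998% in h3.3kd and 29.0% in WT over the body. FY coding sequence had 43.7 and 43.0% in h3.3kd and 51.5% in WT, with FDRs of 4.23e-05 and 5.80e-06 by Fisher's exact test, while FY introns had 22.6 and 22.8% in h3.3kd and 22.03% in WT.

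TEX1, a subunit of the THO/TREX complex, had the highest WT level among the members tested. It had 48.2 and 43.7% in h3.3kd and 48.8% in WT, and only replicate 2 passed the FDR. AT4G11270 had 42.4 and 43.9% in h3.3kd and 47.5% in WT. DWA3, a DDB1-binding protein of abscisic acid signalling, had 40.4 and 40.4% in h3.3kd and 47.0% in WT, and its 3′ end had 39.7 and 39.4% in h3.3kd and 53.6% in WT. The best match of DWA3, AT1G11160, had 30.8 and 32.2% in h3.3kd and 33.3% in WT and missed the FDR.

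Of 3 grouped cell cycle members, BUB3.2, a spindle checkpoint protein, was lower, with 9.72 and 8.96% in h3.3kd and 13.3% in WT. BUB3.1 had 15.05 and 15.7% in h3.3kd and 16.4% in WT. NEDD1, which acts at microtubules, had 36.5 and 36.0% in h3.3kd and 38.9% in WT. All 3 overlapped a hypo-CG-DMR, as did 4 of 5 members of the wider list. The share was 54.0% of the members tested and 34.4% of all genes. In the autophagy and trafficking group, 0 of 2 passed the FDR, and AtATG18a, which acts in autophagosome formation, had 7.24 and 6.63% in h3.3kd and 7.65% in WT.

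Clock genes LWD1 and LWD2 differed in level. LWD1 (ATAN11) had 0.450 and 0.478% in h3.3kd and 0.598% in WT. LWD2 had 12.5 and 18.3% in h3.3kd and 12.8% in WT, and only replicate 2 differed from WT. ATARCA, the RACK1A scaffold, had 0.226 and 0.236% in h3.3kd and 0.629% in WT. Wider lists of the same roles, which add members whose list name the annotation does not give, were also counted. They had 1 lower of 3 in light signalling, 2 of 7 in chromatin and 1 of 5 in the cell cycle. In ribosome biogenesis 2 of 5 were lower, and in RNA processing 1 of 7. The share was 30.2% of the members tested and 19.0% of all genes. The lists of ubiquitin ligase receptors, trafficking, microtubule severing, scaffolds and TOR, and epidermis and clock had 1 of 3, 0 of 3, 3 of 4, 0 of 3 and 1 of 3 lower. DWA3 stands in both the receptor list and the severing list, and was counted as lower in each. These groups are too small for a comparison between roles.

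The members that disagreed most between the h3.3kd libraries were AT5G63010 and AT5G64730. AT5G63010 had 20.7 and 27.4% in h3.3kd and 24.2% in WT, 1 library on either side of WT. AT5G64730 had 19.0 and 13.0% in h3.3kd and 10.6% in WT, and only replicate 1 passed the FDR. Between these libraries, 0 members differed by 10 points or more, against 124 of all 26970 genes tested.

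Members with more exons were more methylated. The 14 members of 1 exon had median levels of 0.533 and 0.527% in h3.3kd and 0.572% in WT, and 0 of them overlapped a hypo-CG-DMR, against 13.1% of all genes of 1 exon. The 39 members of 11 or more exons had 23.8 and 22.9% in h3.3kd and 26.9% in WT, and 32 of them overlapped one (82.1%), against 78.5% of all genes of 11 or more exons. With the FDR alone, 1 of the 14 was lower (7.14%), against 8.29% of all genes of 1 exon. In the class of 11 or more exons 16 of the 39 were lower (41.0%), against 43.4%. Exon number, length and WT level rise together in these genes, and their shares in the difference cannot be told apart.

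Grouped by WT level, where the level that set the group and the level compared came from alternate dyads, the difference was largest in the 24 members of 10 to 20%. These had mean levels of 13.1 and 13.2% in h3.3kd and 17.6% in WT, and 20 of the 24 were lower in both libraries (83.3%, against 58.0% of all genes of that class). The difference was -4.43 points there, against -1.73 over all genes of that class. Those genes had a lower WT mean, at 14.9%, with 13.5 and 13.0% in h3.3kd. The members' difference was -2.94 in the class of 20 to 30%, against -2.99, and -3.15 in the class of 30 to 60%, against -4.06. In the same order of classes the wider family gave -3.50, -1.12 and -3.80 points. Members under 10% gave 0.160 and 0.0112 points in their 2 classes, against 0.125 and -0.614 over all genes of those classes. In the class of 20 to 30%, 60% of the members were lower in both libraries, against 67.3% of all genes. The share was 75%, against 73.5%, in the class of 30 to 60%. It was 42.9%, against 34.7%, under 2%, and 32%, against 51.1%, in the class of 2 to 10%.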

How the data were processed

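Leaf DNA of 2 h3.3kd libraries and 1 WT library was bisulfite sequenced. The authors deposited counts of C and T calls for each cytosine, made by collapsing identical reads and aligning with BS Seeker to TAIR10. About 1.23 to 1.25% of cytosines stood on separate lines and were summed. Counts were summed over gene bodies, 20 bins, 100-bp tiles and gene parts of TAIR10.1 (same nuclear coordinates). Genes needed 10 CG sites and 100 calls in every library, tiles 20 calls. Fisher's exact tests ran in Python 3.11.15 (SciPy 1.17.1, NumPy 2.4.6, pandas 2.3.3, numba 0.67.0), with limma 3.58.1 in R 4.3.3 as an alternative, and were tested on simulated data. Members and lists were chosen with earlier results of these data known. Named genes were those called, those under the largest hypo-CG-DMRs, the 3 most methylated in WT, the 2 with the largest gap between h3.3kd libraries and listed role genes. Others were chosen after their values were seen. Bisulfite conversion was not measured separately, and the CHH level of 0.552 to 0.568% includes unconverted cytosines. The authors describe leaves of WT and of 2 h3.3kd lines, and call the h3.3kd data biological replicates. The labels name no line, so the spread between the h3.3kd libraries may include a difference between lines.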

Additional observations from a re-analysis of the deposited data

How the results depend on the processing

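No paired analysis was possible because only 1 WT library exists and it shares a replicate number with at most 1 h3.3kd library. The body CG difference of -2.32 points was -1.81 as a mean of gene levels and -2.88 in coding sequence alone, and lay between -2.48 and -2.17 without either h3.3kd replicate. As means over sites, the CHG difference was -0.0254 and the CHH difference -0.00562 points. The 5′ difference was -0.311 as a mean over sites and -0.194 with ends of 20%. The 2 members called lower became 17 with a minimum of 5 points, 0 with 20 points, 38 with no minimum and 0 with limma, where the smallest FDR was 0.204 and 17 of 126 members had an unadjusted p under 0.05, and stayed at 2 to 3 without either replicate, emb1345 being added without replicate 1. The 0 called higher became 3 with no minimum. In limma 0 of all genes passed the FDR, and 14.6% of them had an unadjusted p under 0.05, against 13.5% of the members. Members overlapping a hypo-CG-DMR, 68 in all, were 47 to 73 under the other settings and 80 to 81 without either replicate. Members overlapping a hyper-CG-DMR fell to 25 with a minimum of 40 points. At the 5′ end, 0 members were called higher with ends of 20%, 1 to 2 without either replicate, and 0 to 1 lower. At the 3′ end, 1 to 2 were called higher and 29 to 32 lower without either replicate, and 21 were lower with ends of 20%.

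Directions turned in 7 named members, of which 0 had passed the test. AT5G63010 was at 0.639 points over sites of at least 10 calls and at -3.54 to 3.22 without either replicate, and MSI1 at 0.128 and at -0.424 to 0.415. RUP2 was at -0.135 to 0.0332 and LWD2 at -0.345 to 5.53 without either replicate. WDR5a was at 0.0205 and LST8-1 at -3.70 in coding sequence, and as means over sites WDR5b was at 0.586 and LST8-1 at -1.02. The TTG1 body difference fell to -0.436 in coding sequence and no longer passed. Over 162 alternative values of 27 named genes, the direction changed in 10. The causes were not tested. With 1 WT library, variation among WT plants is unmeasured.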
